A study of Homo sapiens with 6 samples.

Results

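TFEB, its relative MITF, the shared target GPNMB and genes of the lysosomal switch that holds TFEB in check were examined in DU145 cells with introduced TFEB. The 10 genes (TFEB, MITF, GPNMB, RRAGA, RRAGC, RRAGD, FLCN, FNIP1, FNIP2 and LAMTOR1) were chosen by name as known targets and regulators of TFEB nutrient signalling, and 8 of them were among the 10542 genes of the expression table. RRAGC and RRAGD were not analysed here. DU145 is an established cell line of human prostate cancer. The DU145-TFEB cells received a TFEB-overexpression lentivirus and the DU145-vector cells a blank lentivirus, with 3 RNA-sequencing libraries in each group. Both groups otherwise share the same cell line and culture. The design addressed how raised TFEB changes the transcriptome of a line with relatively little TFEB of its own. Whether the replicates were separate cultures, and whether the transduced cells came from 1 clone or a pool, is not given in the sources used here, so errors measure only the spread between these libraries.

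TFEB and MITF belong to the MiT/TFE family of basic helix-loop-helix leucine zipper factors, which switch on genes of lysosomes and autophagy and, for MITF, the pigment cell programme. When amino acids are plentiful, Rag GTPases on the lysosome, anchored there by the Ragulator complex, recruit mTORC1 and present TFEB to it for phosphorylation, which keeps TFEB out of the nucleus. Folliculin with FNIP1 or FNIP2 sets the nucleotide state of RagC and RagD, and because TFEB can in turn raise FLCN and RRAGD, the circuit is known as a feedback loop.

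MiT/TFE factors bind short E-box sequences, and 3 promoters that hold them are printed. They were chosen because their genes differ in direction by normalized counts, with GPNMB and LAMTOR1 higher and FNIP1 lower in DU145-TFEB. After the adjustment for GC content and length given below, LAMTOR1 and FNIP1 both had log2 fold changes below 0 (-0.22 and -0.51). The median over all genes of the table was then -0.30. Each window runs from 250 bases before to 50 bases after a RefSeq start site (GRCh38.p14), 5′ to 3′ on the gene's strand, and capitals mark the motifs CACGTG, which reads alike on both strands, and CATGTG, which reads CACATG on the other strand. The 2 motifs do not overlap each other in these windows. The GPNMB window lies at chr7:23246525-23246824 (plus strand), that of FNIP1 at chr5:131796968-131797267 (minus strand) and that of LAMTOR1 at chr11:72103248-72103547 (minus strand).
GPNMB: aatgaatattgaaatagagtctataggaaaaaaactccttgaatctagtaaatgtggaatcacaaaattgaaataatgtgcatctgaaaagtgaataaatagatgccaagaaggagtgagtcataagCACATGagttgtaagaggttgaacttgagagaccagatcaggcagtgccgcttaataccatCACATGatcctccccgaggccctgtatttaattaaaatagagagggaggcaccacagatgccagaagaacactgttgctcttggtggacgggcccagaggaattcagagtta
FNIP1: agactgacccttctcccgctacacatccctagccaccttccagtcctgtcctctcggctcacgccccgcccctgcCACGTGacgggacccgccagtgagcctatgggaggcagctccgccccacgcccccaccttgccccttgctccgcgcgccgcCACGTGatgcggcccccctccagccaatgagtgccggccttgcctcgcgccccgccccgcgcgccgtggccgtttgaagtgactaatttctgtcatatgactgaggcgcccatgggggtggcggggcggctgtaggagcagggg
LAMTOR1: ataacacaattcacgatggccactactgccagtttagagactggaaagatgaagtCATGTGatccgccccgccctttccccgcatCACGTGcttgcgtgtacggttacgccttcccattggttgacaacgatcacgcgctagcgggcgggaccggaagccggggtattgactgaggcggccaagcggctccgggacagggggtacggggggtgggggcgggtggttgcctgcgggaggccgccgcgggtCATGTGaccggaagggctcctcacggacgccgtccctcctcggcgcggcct

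The GPNMB window held CATGTG, in its CACATG form, beginning 123 and 62 bases before the start. In FNIP1, CACGTG began 175 and 94 bases before the start. LAMTOR1 held CACGTG at 165 bases and CATGTG at 195 bases and 1 base before the start. The second of the FNIP2 windows held CATGTG 142 bases before its start, while the windows of TFEB, MITF and FLCN held neither motif. In all, 7 of the 8 genes had promoter windows, 12 together. Of these 12 windows, 2 held CACGTG and 3 held CATGTG. Over all 35116 RefSeq promoter windows, 7.26% held CACGTG and 11.1% held CATGTG, and over the 11157 windows of genes in the table the shares were 9.19% and 7.29%. A match describes letters in the window and no binding was measured.

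The table was selected on the contrast between DU145-TFEB and DU145-vector, since all 10542 genes have a deposited adjusted p-value below 0.05 for it. The values of the 8 genes are therefore a description, no p-value is given for them, and to call 1 of them a DEG places it within the table and is no independent test. A normalized count is the number of reads on a gene divided by a size factor of the library. Fold changes are on the scale of log2(normalized count + 1), as DU145-TFEB minus DU145-vector, with the standard error (SE) of limma. A differentially expressed gene (DEG) needed a limma adjusted p-value under 0.05 together with a log2 fold change beyond 1.5 in either direction. By these cutoffs 19.1% of the listed genes were DEGs, of which 2.54% of all listed genes were higher and 16.5% lower in DU145-TFEB. Libraries of the groups did not overlap for 99.3% of the listed genes.

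Per library, 13999961 to 16511477 reads fell on listed genes, with size factors from 0.950 to 1.10. The median log2 fold change over the listed genes was -0.36, so the table as a whole leaned towards lower values in DU145-TFEB. Fold changes followed the GC content of the transcripts, with a Spearman rho of 0.75 across genes, which are not independent replicates. Genes in the lowest quintile (1 of 5 equal groups) of GC content had a median log2 fold change of -1.41, and those in the highest quintile one of 0.67. As deviations from each gene's mean over the 6 libraries, so that the values centre near 0, the gap between the highest and the lowest quintile was positive in each DU145-TFEB library (0.98, 1.36 and 0.70 on the log2 scale) and negative in each DU145-vector library (-0.92, -1.28 and -0.88). This gradient cannot be told apart from the introduced TFEB, because it differs between the groups in the same way. Fold changes of the 8 genes and of the lists are therefore also given after a trend against GC content and length was removed from every library.

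Among the 8 genes, 5 were higher and 3 lower in DU145-TFEB, beside 47.6% higher over the listed genes. The libraries of the groups did not overlap for any of the 8, as for 99.3% of the listed genes. TFEB and GPNMB were DEGs that rose, and MITF and FNIP1 were DEGs that fell, whereas FLCN, FNIP2, RRAGA and LAMTOR1 lay below the fold-change cutoff. In the table as a whole, 2.54% of genes were DEGs that rose and 16.5% DEGs that fell. The median log2 fold change of the 8 was 0.51, beside -0.36 over the listed genes. With the trend removed, 3 of the 8 were higher and 5 lower, beside 28.6% higher over the listed genes. The median of the 8 was then -0.06, beside -0.30 over the listed genes.

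**Figure D1:**
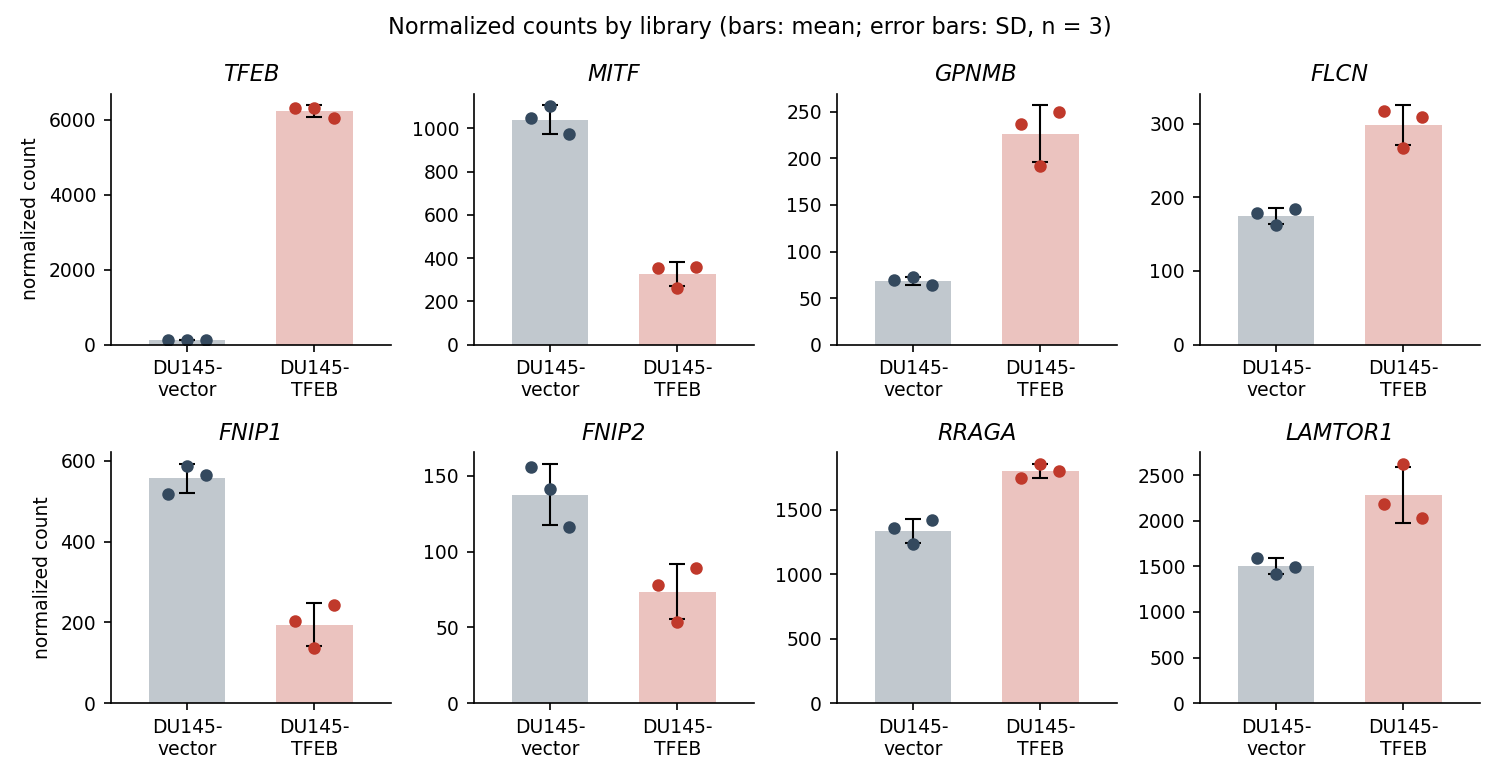
Normalized counts of the 8 genes (vertical axes, linear from 0) in the 3 DU145-vector and 3 DU145-TFEB libraries. Points are libraries, bars the mean and error bars the SD. TFEB, GPNMB, FLCN, RRAGA and LAMTOR1 were higher, and MITF, FNIP1 and FNIP2 lower, in every DU145-TFEB library than in any DU145-vector library.

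TFEB (ENSG00000112561, chr6:41683978-41736259, minus strand, GRCh38) was measured at 6325, 6301 and 6036 normalized counts in replicates 1 to 3 of DU145-TFEB, against 127, 124 and 125 in those of DU145-vector. Reads from the introduced and the endogenous gene were counted together, so these values show the sum of both. Between means of 6221 ± 160 and 125 ± 1.82 (SD, n = 3 each) the difference was 49.6-fold, and the log2 fold change of 5.62 (SE 0.08) was the highest of all listed genes. The lowest DU145-TFEB library stood 47.4-fold above the highest DU145-vector library. None of the other 2107 genes in the same quintile of GC content was higher, and removing the trend left a log2 fold change of 4.60 (SE 0.08). In bulk libraries, more cells that carry a transcript and more transcript per cell cannot be told apart, here and for the genes that follow.

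MITF (ENSG00000187098, chr3:69739435-69968337, plus strand), the melanocyte master factor and the one other MiT/TFE gene in the table, fell. Its normalized counts were 357, 262 and 360.3 in DU145-TFEB and 1046, 1103 and 973 in DU145-vector. All DU145-TFEB libraries lay well below the lowest DU145-vector library, and replicate 2 was the lowest of them. The means of 326 ± 55.7 and 1041 ± 65.2 (SD, n = 3 each) differed 3.19-fold, a log2 fold change of -1.68 (SE 0.13). Of the listed genes, 11.8% had a lower value. MITF transcripts are GC-poor (42.9%), and of the 2106 other genes in that quintile of GC content 18.1% were lower, with a median of -1.08. After removal of the trend its log2 fold change was -0.94 (SE 0.10), which no longer passed the cutoff, and it also missed the cutoff with DESeq2 (-1.43).

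Per kilobase of the gene length in the table, TFEB stood at 22.2 normalized counts in DU145-vector and MITF at 145. In DU145-TFEB the order turned, with TFEB at 1101 and MITF at 45.4. The ratio of TFEB to MITF per kilobase was 0.154 ± 0.010 in DU145-vector and 24.8 ± 5.03 in DU145-TFEB (SD, n = 3 each), a 161-fold difference. It combines a GC-rich gene (62.4%) with a GC-poor gene (42.9%). The length of the introduced TFEB transcript is not given in the sources used here. TFEB per kilobase in DU145-TFEB therefore rests on the annotated gene length, which may not fit that transcript. TFE3 and TFEC, the other relatives, were not analysed here.

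GPNMB (ENSG00000136235, chr7:23235967-23275108, plus strand) encodes a lysosome-associated transmembrane glycoprotein and is a target that MITF, TFE3 and TFEB are known to activate. Its normalized counts were 237, 192 and 250.2 in DU145-TFEB and 69.6, 72.2 and 64 in DU145-vector. Every DU145-TFEB library was above every DU145-vector library, again with replicate 2 the lowest of its group. The mean rose 3.30-fold, from 68.6 ± 4.18 to 226 ± 30.5 (SD, n = 3 each), with a log2 fold change of 1.70 (SE 0.15). It ranked at position 185 from the top, and 1.75% of the listed genes were higher.

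The rise of GPNMB ran against its GC content of 45.0%. Genes of the same quintile of GC content had a median log2 fold change of -1.08, and 11 of the other 2106 (0.522%) were higher than GPNMB. Its log2 fold change became 2.15 (SE 0.15) with the trend removed. The ratio of GPNMB to MITF per kilobase was 0.078 ± 0.001 in DU145-vector and 0.829 ± 0.041 in DU145-TFEB (SD, n = 3 each). In the single DU145-TFEB libraries it was 0.789, 0.871 and 0.826, so GPNMB and MITF were low together in replicate 2. The lowest GPNMB library held 64 reads and the highest 241.

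**Figure D2:**
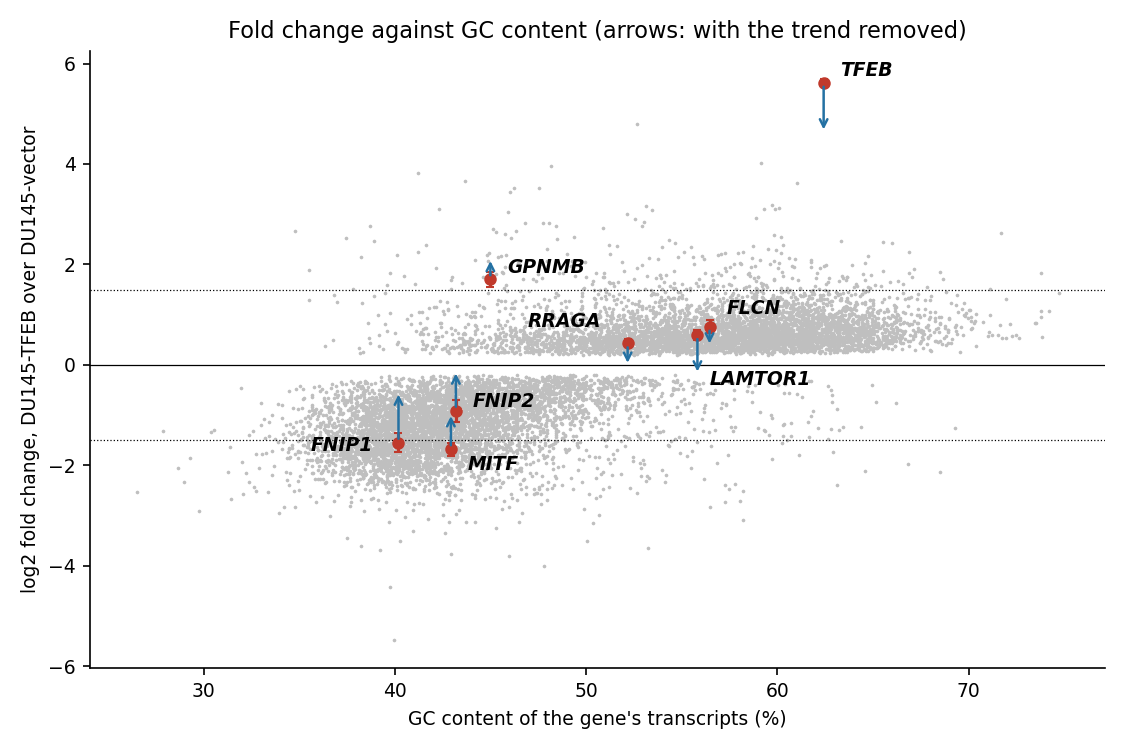
Log2 fold change (DU145-TFEB over DU145-vector, vertical axis) against the GC content of a gene's transcripts (horizontal axis, %) for the listed genes (grey) and the 8 genes (red, with SE). Dotted lines mark the cutoff of 1.5 in either direction, and arrows lead to the value with the trend against GC content and length removed. TFEB and GPNMB stayed past the cutoff, while MITF and FNIP1 moved inside it.

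Of 15 genes that MITF is known to activate in pigment cells, 5 were in the table, 2 of them higher and 3 lower. Over the listed genes 47.6% were higher, 2.54% were DEGs that rose and 16.5% DEGs that fell. RAB38, which traffics melanosome cargo, rose from 15.8 ± 1.93 to 58.5 ± 10.8 normalized counts (log2 fold change 1.82, SE 0.23; 1.77 with the trend removed). MET, the receptor of hepatocyte growth factor, fell from 3686 ± 38.6 to 1004 ± 173 (log2 fold change -1.89, SE 0.11; -1.26 with the trend removed). MLANA, a melanosome antigen, was a DEG that fell from 11.1 ± 4.01 to 3.0 ± 1.05 normalized counts (-1.59, SE 0.40), with as few as 2 reads in a library, and lay inside the cutoff with the trend removed (-1.12). The median log2 fold change of the 5 was -1.39, beside -0.36 over all listed genes, and -0.71 beside -0.30 with the trend removed. MLANA was thus near the floor and PMEL, TYR, TYRP1 and DCT, the remaining defining melanocytic markers, were not analysed here. Of 5 epithelial markers 3 were in the table, the keratins KRT8, KRT18 and KRT19, with log2 fold changes below the cutoff (-0.68, -0.78 and -0.38) and overlapping groups for KRT19. After removal of the trend they stood at -1.46, -1.65 and -1.39, and that of KRT18 then lay past the cutoff. Of 6 macrophage markers 0 were in the table.

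Over the 6 libraries, the profiles closest to GPNMB by Euclidean distance of centred log2 values were those of WISP2 (distance 0.28), TSSK6 (0.30) and CRYM (0.33), with log2 fold changes of 1.73, 1.57 and 1.73. The closest to MITF were ZFP82 (0.07), NEMP1 (0.08) and HACD2 (0.09), with log2 fold changes of -1.66, -1.68 and -1.68. These distances are a description over 6 libraries that share a single contrast.

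By normalized counts, the 3 genes of the folliculin complex moved apart. With the trend removed and relative to the median of the listed genes, FLCN stood at 0.64, FNIP1 at -0.21 and FNIP2 at 0.21. FLCN (ENSG00000154803, chr17:17212212-17237188, minus strand), the tumour suppressor of Birt-Hogg-Dubé syndrome and the catalytic partner for RagC and RagD, was higher in DU145-TFEB. Its normalized counts were 318, 267.5 and 308 in DU145-TFEB and 178, 163 and 184 in DU145-vector. The groups were separate, and the means of 298 ± 26.7 and 175 ± 10.9 (SD, n = 3 each) differed 1.70-fold, with a log2 fold change of 0.76 (SE 0.12). FLCN transcripts are GC-rich (56.5%), the median of its quintile of GC content was 0.53, and 25.2% of the 2106 other genes there were higher. Removing the trend left 0.34 (SE 0.13).

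FNIP1 (ENSG00000217128, chr5:131641714-131797063, minus strand), which binds FLCN and AMPK, fell. It had normalized counts of 203, 137 and 243 in DU145-TFEB and of 517.5, 587 and 566 in DU145-vector. The highest DU145-TFEB library was thus below the lowest DU145-vector library by more than the range within either group. The means of 194 ± 53.8 and 557 ± 35.7 (SD, n = 3 each) differed 2.87-fold, a log2 fold change of -1.55 (SE 0.19). FNIP1 had the lowest GC content of the 8 genes (40.2%), and genes of its quintile had a median of -1.41, with 41.1% of the 2107 others lower. With the trend removed its value was -0.51 (SE 0.12), and without DU145-TFEB replicate 2 it was -1.32, neither past the cutoff.

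FNIP2 (ENSG00000052795, chr4:158769138-158908049, plus strand), the paralogue of FNIP1, gave 77.9, 53.7 and 89.3 normalized counts in DU145-TFEB and 156, 141 and 116 in DU145-vector. The nearest libraries of the groups were replicate 3 of each. The means of 73.6 ± 18.2 and 138 ± 20.2 (SD, n = 3 each) gave a log2 fold change of -0.92 (SE 0.21), below the cutoff, and -0.09 (SE 0.17) with the trend removed. Genes of its quintile of GC content had a median of -1.08, and 60.1% of the 2106 others were lower than FNIP2.

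Within each library FLCN was compared with its partners per kilobase. The ratio of FLCN to FNIP1 was 0.256 ± 0.028 in DU145-vector and 1.30 ± 0.281 in DU145-TFEB, a 5.06-fold difference, and it was above 1 in each of the 3 DU145-TFEB libraries (1.27, 1.59 and 1.03). The ratio of FLCN to FNIP2 went from 1.44 ± 0.281 to 4.63 ± 0.854 (3.22-fold). That of FNIP1 to FNIP2 went from 5.63 ± 1.07 to 3.59 ± 0.124 (SD, n = 3 for each ratio). In all 3 ratios the groups did not overlap, and the ratios combine a GC-rich with GC-poor genes except that of FNIP1 to FNIP2.

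**Figure D3:**
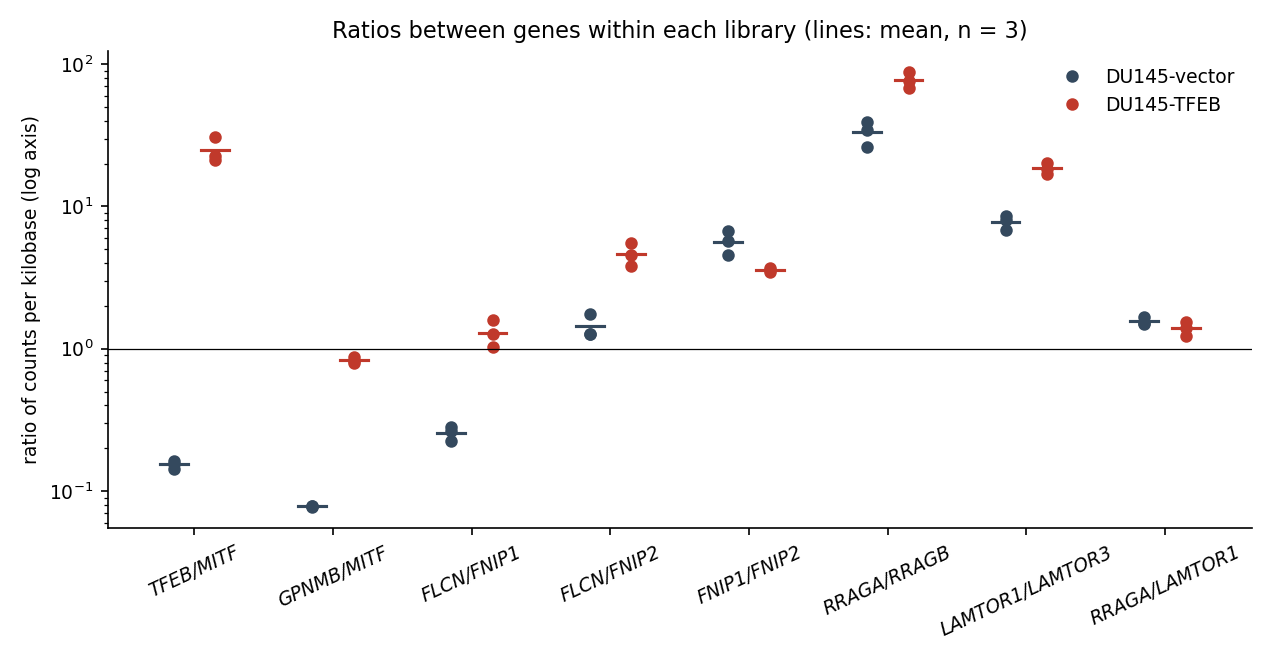
Ratios of normalized counts per kilobase between pairs of genes within each library (vertical axis, log scale). Points are libraries and lines the means of DU145-vector (dark) and DU145-TFEB (red). The groups were separate for every pair drawn but RRAGA to LAMTOR1, as they were for 99.3% of the listed genes taken singly. The ratios were not adjusted for GC content.

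RRAGA (ENSG00000155876, chr9:19049395-19050983, plus strand), an intronless gene for the RagA GTPase, had 1751, 1856 and 1800.5 normalized counts in DU145-TFEB and 1356, 1239 and 1421 in DU145-vector. Its groups were separate by a smaller margin than those of the other genes with high counts. The means of 1803 ± 52.7 and 1338 ± 92.4 (SD, n = 3 each) differed 1.35-fold, a log2 fold change of 0.43 (SE 0.08) that was below the cutoff. The median of other genes in its quintile of GC content was 0.53. With the trend removed RRAGA stood at -0.04 (SE 0.07), beside a median of -0.30 over the listed genes. RRAGB, its close paralogue, was lower, at 40.4 ± 3.90 against 70.3 ± 11.1 (log2 fold change -0.78, SE 0.20; -0.55 with the trend removed). The ratio of RRAGA to RRAGB per kilobase was 77.2 ± 9.79 in DU145-TFEB and 33.4 ± 6.70 in DU145-vector. The GC content of the 2 genes differs (52.2% and 44.1%), and the ratio was not adjusted for it. Reads of these paralogues may be shared, and how such reads were counted is not given in the sources used here.

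LAMTOR1 (ENSG00000149357, chr11:72085895-72103387, minus strand), the lipid-anchored subunit that ties Ragulator to the lysosome, had 2183, 2621.5 and 2033 normalized counts in DU145-TFEB and 1596, 1419 and 1488 in DU145-vector. Replicate 2 of DU145-TFEB was the highest of the 6 libraries. The means of 2279 ± 306 and 1501 ± 89.1 (SD, n = 3 each) differed 1.52-fold, with a log2 fold change of 0.60 (SE 0.10), below the cutoff. With the trend removed its value was -0.22 (SE 0.06), beside a median of -0.30 over the listed genes.

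Of the Ragulator list, 6 of 6 genes were in the table, 4 of them higher and 2 lower, and the median log2 fold change was 0.58. Over the listed genes 47.6% were higher, 16.5% were DEGs that fell, and the median was -0.36. Removing the trend left 3 Ragulator genes higher and 3 lower, with a median of -0.06, beside 28.6% higher and a median of -0.30 over the listed genes. LAMTOR2 (0.69), LAMTOR4 (0.79) and LAMTOR5 (0.57) were higher, like LAMTOR1, and with the trend removed they stood at 0.08, -0.19 and 0.40. LAMTOR3, also a scaffold of MAP kinase signalling, was lower at 188 ± 28.0 against 294 ± 27.0 (-0.65), and turned to 0.36 with the trend removed. SLC38A9, the lysosomal arginine sensor bound to Ragulator, was the single DEG and fell, from 373 ± 89.6 to 116 ± 32.5 normalized counts (-1.69, SE 0.24; -0.71 with the trend removed). The ratio of LAMTOR1 to LAMTOR3 per kilobase was 18.5 ± 1.73 in DU145-TFEB and 7.82 ± 0.878 in DU145-vector. It combines a GC-rich gene (55.8%) with a GC-poor gene (37.7%) and was not adjusted for GC content. RRAGA to LAMTOR1 overlapped between the groups (1.40 ± 0.155 in DU145-TFEB and 1.56 ± 0.097 in DU145-vector).

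Upstream of the Rags, 10 of 12 genes of GATOR and KICSTOR, which report amino acid supply, were in the table. Among them, NPRL2 (0.71), NPRL3 (0.56), SEC13 (0.45), WDR24 (0.68), WDR59 (0.37) and KPTN (0.65) were higher, and MIOS (-0.73), SEH1L (-0.94) and C12orf66 (-0.81) lower, each below the fold-change cutoff. The list went from 7 higher and 3 lower (median 0.45) to 3 higher and 7 lower (median -0.12) once the trend was removed. Of all listed genes, 47.6% were higher by normalized counts (median -0.36) and 28.6% with the trend removed (median -0.30). NPRL2 (-0.03), NPRL3 (-0.40), SEC13 (-0.14), WDR24 (-0.40), KPTN (-0.34) and MIOS (0.17) then changed sign, and WDR59 (0.37), SEH1L (-0.09) and C12orf66 (-0.45) did not. The 3 listed amino acid sensors or their regulators were all lower under the authors' scaling, beside 52.4% of all listed genes. Their transcripts were GC-poor (37.8% to 41.2%), within the quintile that had a median of -1.41. BMT2 (SAMTOR), which senses S-adenosylmethionine, fell from 350 ± 23.8 to 78.3 ± 18.2 (-2.17, SE 0.18). It was a DEG, and DEGs that fell made up 16.5% of all listed genes. SESN3 (-1.45) and SESN1 (-0.59), the leucine-sensor family, were below the cutoff. BMT2 stood at -1.18 with the trend removed, SESN3 at -0.37 and SESN1 at 0.20.

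The mTORC1 and TSC list had 5 of 9 genes in the table, each below the fold-change cutoff. RPTOR (0.43), MLST8 (0.78) and TSC2 (0.55) were higher and TSC1 (-0.74) lower. These stood at -0.11, -0.28, 0.04 and -0.30 with the trend removed, when the list held 2 higher and 3 lower genes in place of 4 and 1. The table as a whole then had 28.6% of its genes higher and a median of -0.30, in place of 47.6% and -0.36. TBC1D7, the third subunit of the TSC complex that restrains mTORC1, had 587 ± 28.3 against 326 ± 24.8 normalized counts (0.85, SE 0.10), and with the trend removed it stood at 1.19.

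Genes that phosphorylate, dephosphorylate, retain or export TFEB were in the table for 19 of 23. Of these, 6 were higher and 13 lower with a median of -0.58, beside 47.6% higher and a median of -0.36 over the listed genes. Removing the trend gave 3 higher and 16 lower and a median of -0.31, beside 28.6% higher and a median of -0.30 over the listed genes. XPO1, the exportin that carries TFEB out of the nucleus, fell from 6841 ± 512 to 2110 ± 367 (-1.71, SE 0.12). MAP4K3, a kinase that phosphorylates TFEB, fell from 969 ± 85.4 to 288 ± 41.3 (-1.75, SE 0.13). Both were DEGs, beside 16.5% of the listed genes that were DEGs and fell. With the trend removed XPO1 and MAP4K3 stood at -0.49 and -0.77. MCOLN1, the lysosomal calcium channel that activates calcineurin and is itself a TFEB target, named after its values were seen, was at 741 ± 61.2 against 360 ± 23.8 (1.04, SE 0.10), and at 0.04 with the trend removed.

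**Figure D4:**
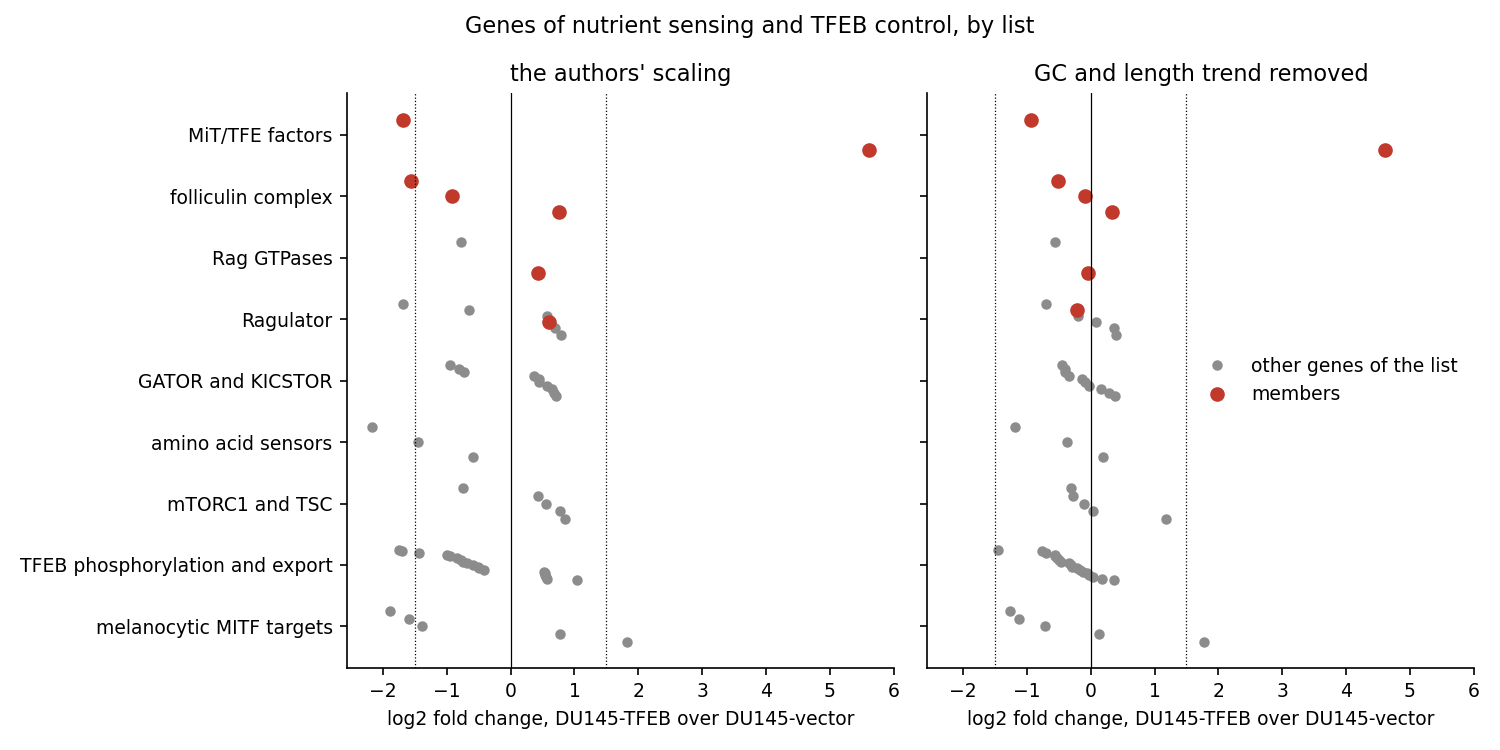
Log2 fold changes (horizontal axis, DU145-TFEB over DU145-vector) of the genes of each list in the table, on the scale of the authors' size factors (left) and with the trend against GC content and length removed (right). Red points are the chosen genes and grey points the others, and dotted lines mark the cutoff of 1.5. GPNMB is on none of these lists, and TFEB is the single red point past the cutoff on the right.

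Over the 8 lists of nutrient sensing and TFEB control together, 50 of 67 genes were in the table, 24 of them higher and 26 lower (47.6% of all listed genes were higher), with 1 DEG that rose (TFEB) and 6 that fell. The 43 that were not among the chosen genes held 4 DEGs, all of which fell, with a median of -0.50 beside -0.36 over the listed genes, and of -0.22 beside -0.30 with the trend removed. With the trend removed, 14 of the 50 were higher and 36 lower, against 28.6% higher over the listed genes, and TFEB was the single DEG. These lists, too, come from a table selected on this contrast, and the counts stand beside the shares of 2.54% and 16.5% in the table.

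Levels of different genes were compared per kilobase. In DU145-vector the order from the top was RRAGA (842), LAMTOR1 (540), MITF (145), FNIP1 (70.1), TFEB (22.2), FLCN (17.9), FNIP2 (12.7) and GPNMB (11.4). Only FNIP2 and GPNMB, among neighbours, overlapped between libraries, at 10.7 to 14.3 and 10.6 to 11.9. In DU145-TFEB the order was RRAGA (1134), TFEB (1101), LAMTOR1 (820), MITF (45.4), GPNMB (37.5), FLCN (30.4), FNIP1 (24.4) and FNIP2 (6.77). There RRAGA and TFEB overlapped, as did MITF with GPNMB, GPNMB with FLCN and FLCN with FNIP1. The place of TFEB in DU145-TFEB rests on the annotated gene length, since that of the introduced transcript is not given. In this order GPNMB moved from the last place to the fifth, and FNIP1 from the fourth to the seventh. The levels were not adjusted for GC content, which among the 8 genes was lowest for FNIP1 (40.2%). For every gene they rest on the gene length in the table.

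Within the DU145-TFEB group, replicate 2 was the lowest library for 5 of the 8 genes (MITF, GPNMB, FLCN, FNIP1 and FNIP2) and the highest for RRAGA and LAMTOR1. It was also the library with the widest GC gap, and the 4 most GC-poor of the 8 genes were all lowest in it. The part of the GC gap in these values was not tested. The coefficient of variation ran from 2.58% to 27.7% in DU145-TFEB and from 1.45% to 14.6% in DU145-vector.

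Genes that overlap on the genome could share reads with 6 of the 8, and the strand setting and the handling of shared reads are not given in the sources used here. On the same strand, the protein-coding model AC008695.1 covers 155270 bases of FNIP1, nearly its whole span, and AC055811.2 covers 24974 bases of FLCN. Strand would thus not separate these reads. GENCODE also places MPRIP on the opposite strand to FLCN, LRTOMT opposite to LAMTOR1 and C4orf45 opposite to FNIP2, and TFEB and MITF overlap opposite-strand RNA models. GPNMB and RRAGA overlap no other gene.

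**Figure D5:**
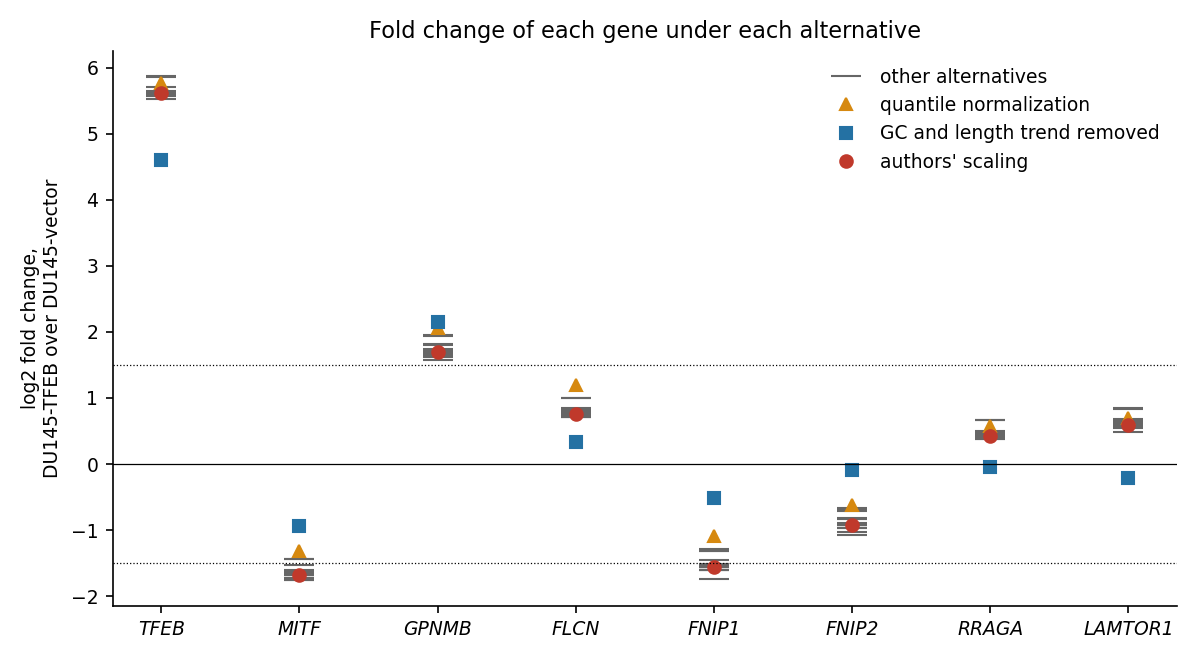
Log2 fold change (vertical axis, DU145-TFEB over DU145-vector) of the 8 genes under the authors' scaling (red), quantile normalization (triangles), the trend against GC content and length removed (squares) and the remaining alternatives (lines), with the cutoff of 1.5 dotted. TFEB ran from 4.60 to 5.87 and GPNMB from 1.58 to 2.15, past the cutoff throughout. RRAGA and LAMTOR1 crossed 0 with the trend removed, when the median of the listed genes was -0.30.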

How the data were processed

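The 6 RNA-sequencing libraries (3 DU145-TFEB, 3 DU145-vector) were grouped by the sample labels. Per the submitters' processing notes, CASAVA 1.8, HISAT2 2.1.0, edgeR and GRCh38 (hg38) were used, and the study's methods name DESeq2. The authors deposited a normalized signal (read counts divided by a size factor per library, whole reads within 0.01 in 100% of values after rescaling). Group means and the authors' fold changes, p-values and adjusted p-values were not used, except to count how many of the listed genes had an adjusted p-value below 0.05 (all 10542).

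The 10 genes and the gene lists were chosen with earlier results of these data known. log2(normalized count + 1) was fitted with limma 3.58.1 (mean-variance trend, R 4.3.3) over all 10542 genes with Benjamini-Hochberg adjustment. A filter on a mean of at least 1 removed 0 genes. DEGs passed an adjusted p-value of 0.05 together with a log2 fold change beyond 1.5 in either direction. The trend against GC content (GENCODE 29 transcripts, 10537 genes) and length was removed per library by loess with a span of 0.5. Gene positions equal GENCODE 29 for 10541 genes. Alternatives were DESeq2 1.42.0 and edgeR 4.0.16 on recovered reads, other pseudocounts, filters, scalings, cutoffs, a replicate block and leaving out each library. Scripts were tested on simulated data. Promoters came from RefSeq (GRCh38.p14), with no entry for RRAGA. Some genes of the lists are not reported here. Named are all chosen genes and short lists, the DEGs of longer lists or, without any, the 3 with the largest change, and the 3 profiles nearest to GPNMB and MITF.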

Additional observations from a re-analysis of the deposited data

How the results depend on the processing

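Of 136 values of the 8 genes under alternatives, 124 kept their direction and side of the cutoff, 10 lost the cutoff and 2 reversed, RRAGA (-0.043) and LAMTOR1 (-0.22), both with the GC and length trend removed. The median of the listed genes was then -0.30, and relative to it RRAGA stood at 0.25 and LAMTOR1 at 0.08. FNIP2 kept its sign, but relative to the listed median it went from -0.56 to 0.21. Part of the 124 was fixed in advance. The fit with no filter repeats the main fit, since the filter removed 0 genes. A filter on at least 10 reads in every library and the replicate block left the log2 fold changes of the 8 genes as they were. MITF lost the cutoff under quantile normalization (-1.31), DESeq2 (-1.43), DESeq2 size factors with limma (-1.44) and the trend removal (-0.94). FNIP1 lost it in these settings (-1.09, -1.29, -1.31 and -0.51), with edgeR (-1.45) and without DU145-TFEB replicate 2 (-1.32). The cause was not tested. The 4 DEGs among the 8 genes became 2 (TFEB and GPNMB) under quantile normalization, DESeq2 size factors with limma, DESeq2 and the trend removal, and 8 with no fold-change cutoff. The 7 DEGs of the nutrient lists became 3, 3, 3 and 1 in these settings and 50 with no cutoff. The 2009 DEGs of the table (268 higher, 1741 lower) became 1261 (70 and 1191) with a pseudocount of 10, 579 (137 and 442) with the trend removed, 4161 (887 and 3274) with a cutoff of 1 and 10539 (5014 and 5525) with none. DESeq2 gave 484 higher and 1078 lower, DESeq2 size factors with limma 466 and 1104, and quantile normalization 563 and 808. The median of the table moved from -0.36 to -0.12 with DESeq2, -0.03 with quantile normalization and -0.30 with the trend removed. Leaving out each library gave 1584 to 2316 DEGs in the table (lowest without replicate 2 of DU145-TFEB, highest without its replicate 3), and 3 to 4 among the 8 genes.

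With the replicate number as a block the table held 2011 DEGs, and 4 of the 8 genes, as without it. The numbers do not pair the libraries: deviations of same-numbered libraries correlated at -0.02, -0.25 and -0.14, and 0 of 6 libraries correlated best with its own number. FNIP2 and GPNMB had the fewest reads (59 to 159 and 64 to 241 per library), and the SE was widest for FNIP2 (0.21) and FNIP1 (0.19).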
